A study of Mus musculus with 58 samples.

Results

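The 8 genes described here belong to the polyol, hexosamine and glycation pathways of glucose, and they were taken by symbol from the deposited count table, 8 of its 52459 genes. Akr1b3 (aldose reductase), Sord (sorbitol dehydrogenase) and Khk (ketohexokinase) act in the polyol and fructose route. Gfpt1, Gfpt2 and Ogt act in the hexosamine route, and Glo1 and Ager belong to protein glycation. All 8 passed the filter on low values, a median above 4 normalized counts over all libraries, which left 19120 genes for the tests.

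In the polyol pathway aldose reductase turns glucose into sorbitol at the expense of NADPH, sorbitol dehydrogenase oxidizes the sorbitol to fructose, and ketohexokinase phosphorylates fructose. In the hexosamine pathway fructose 6-phosphate is aminated and built up to UDP-N-acetylglucosamine, the donor from which O-GlcNAc transferase moves the sugar onto proteins. Sugars and their breakdown product methylglyoxal also react with proteins without an enzyme, which gives advanced glycation end products, and all of these routes have long been studied in the diabetic retina.

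RNA was read from retinas of male mice killed, after perfusion, at 4 months of age, kept since birth in a cycle of 12 h light and 12 h dark, with night samples taken under dim red light. The diabetic group (C57BL/6-Ins2Akita/J) was heterozygous for Ins2Akita, a mutation of insulin 2 that misfolds the hormone and kills beta cells, and its blood glucose was above 250 mg/dL. Controls (C57/BL/6) were male littermates lacking the mutation, so both groups shared strain, sex, age and lighting. ZT is the time in hours since the lights came on, and there were 30 control libraries (5, 6, 5, 5, 5 and 4 at ZT1, ZT5, ZT9, ZT13, ZT17 and ZT21) and 28 diabetic libraries (5, 5, 5, 4, 4 and 5). Each mouse gave 1 time point only, and the model is a single mutation in 1 sex, in which the low insulin and the high glucose cannot be told apart.

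Counted reads ranged from 7773117 to 22147398 per library, with medians of 15260957 in control and 15471730 in diabetic retinas. Markers of the labelled tissue were present, as 8 rod markers summed to between 527400 and 797100 normalized counts in every library. Markers of other tissue were carried along unevenly. The sum of 8 retinal pigment epithelium markers went from 446 to 4634 in control and from 375 to 4989 in diabetic libraries, and 8 lens markers summed to at most 1006 in diabetic libraries but reached 43640, 28970 and 33310 in control libraries at ZT1, ZT17 and ZT21. Blood markers had medians of 5.56 and 6.25 and reached 190.0 in 1 library. On the first principal component 2 libraries stood apart from the rest, replicate 3 of the control group and replicate 3 of the diabetic group, both at ZT17. In a whole retina fewer cells of a type and less RNA per cell cannot be told apart.

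In the Gencode M21 annotation of GRCm38 all 8 are protein-coding genes. Akr1b3 lies on chromosome 6 (34302434 to 34317478, minus strand) and Gfpt1 on the same chromosome (87042846 to 87092197, plus strand). Sord is on chromosome 2 (122234749 to 122265340, plus), Khk on chromosome 5 (30921431 to 30931248, plus), Gfpt2 on chromosome 11 (49794178 to 49838613, plus) and Ogt on chromosome X (101640060 to 101684351, plus). Glo1 (30584936 to 30626871, minus) and Ager (34597862 to 34600936, plus) are both on chromosome 17. Of the 8 genes, 3 share sequence with others. Of the 50-base stretches of the coding transcripts of Akr1b3, 79.4% also occur in transcripts of other genes (5 of them, among them Gm38056, Gm6644 and Gm6736). The share was 31.3% for Sord (with Gm6652), 10.4% for Glo1 (in short stretches shared with 866 genes) and 0% for the other 5. How the counting treated reads that fit several places is not given in the sources used here, so the counts of Akr1b3 and Sord are uncertain to that extent. Exons of Glo1 also overlap those of 3 other genes, a non-coding RNA on the same strand (1700097N02Rik, 90 bases) and 2 unnamed gene models on the opposite strand (418 and 214 bases).

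The stretch of promoter before the start of Glo1, the only one of the 8 genes with a daily rhythm past the threshold below, and that of Ogt, the most abundant, are shown from RefSeq (GRCm38.p6). For Glo1 they are the 113 bases at chr17:30612797-30612909 on the minus strand, inside the span of the gene but outside its annotated exons, and the 137 bases between them and the start are left out because they lie in annotated exons. For Ogt they are the 250 bases at chrX:101639801-101640050 on the plus strand, where the capitals mark a D-box, a motif read by the clock output factors of the DBP family, 92 to 85 bases before the start.
Glo1: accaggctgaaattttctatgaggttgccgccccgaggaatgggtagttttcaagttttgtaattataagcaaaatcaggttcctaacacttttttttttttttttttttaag
Ogt: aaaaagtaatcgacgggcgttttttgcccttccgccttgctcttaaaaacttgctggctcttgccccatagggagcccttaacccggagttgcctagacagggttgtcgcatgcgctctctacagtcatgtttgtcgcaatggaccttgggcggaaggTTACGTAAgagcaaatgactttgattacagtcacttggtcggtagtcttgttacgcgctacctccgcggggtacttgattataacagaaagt
The motifs searched on both strands of the 250 bases before each start were the E-box CACGTG, the hypoxia response core ACGTG, which the E-box contains, the D-box spelled TTATGTAA or TTACGTAA, the nuclear receptor motif AGGTCA and the antioxidant response core TGACNNNGC. They occur in 6.02%, 16.6%, 0.819%, 0.113%, 14.0% and 10.2% of 32851 such windows. Glo1, Sord and Ager had no match, Gfpt1 and Gfpt2 held ACGTG once each, and Khk held 1 E-box. Ogt has 2 listed starts, and the window shown held the second spelling of the D-box, found in 37 of the 32851 windows, while the window of the other start held no match. No window was listed for Akr1b3. A match is a description of the letters only.

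As counts per kilobase of the longest coding transcript scaled to the library total (RPKM), Ogt had the highest level, with a median of 60.1 over the 58 libraries and a range from 35.9 to 75.4. Gfpt1 followed at 25.1 (19.0 to 28.0), and the ranges of these genes did not touch. Glo1 at 8.83 (6.93 to 11.2), Akr1b3 at 7.51 (5.29 to 9.49) and Khk at 6.67 (5.08 to 8.29) overlapped each other. Sord came next at 3.77 (2.67 to 5.13), overlapping Khk at its upper end only. Ager at 1.76 (0.786 to 3.45) was above Gfpt2 at 0.539 (0.252 to 0.881), the isoenzyme of Gfpt1, with a slight overlap. With the length of all exons joined in place of the transcript, Akr1b3 dropped to 1.24 because of its long exon union of 8384 bases against 1387, and the order of the others stayed. By these counts the transferase and the first enzyme of the hexosamine route were the most abundant transcripts of the set, and the receptor Ager and Gfpt2 the least abundant. The ranks of Akr1b3 and Sord are uncertain, because 79.4% and 31.3% of their 50-base stretches also occur in other genes.

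**Figure D1:**
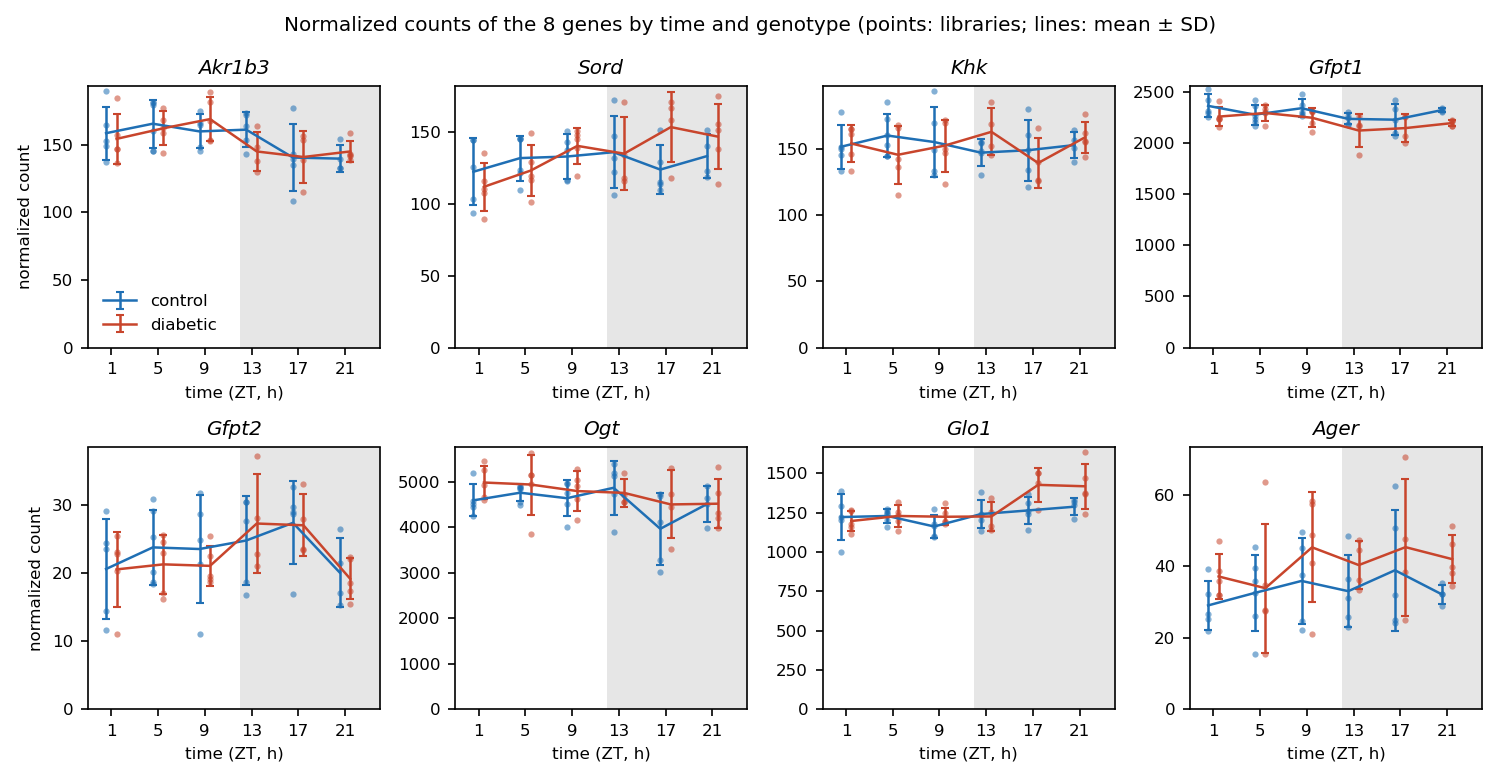
Normalized count (counts divided by DESeq2 size factors, vertical axis from 0) of each gene against time in ZT hours for control and diabetic retinas. Points are libraries, lines join group means with SD bars, the dark phase is shaded, and the diabetic Glo1 means at ZT17 and ZT21 (1427 and 1418) are the highest group means of that gene.

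Diabetic and control retinas were first compared over the whole day, as the mean of the 6 differences. None of the 8 genes passed the threshold of an adjusted p-value of 0.05 in edgeR's quasi-likelihood test, against 4.64% of the 19120 genes tested, nor in DESeq2. At an unadjusted p-value under 0.05 there were 3 of 8, Gfpt1, Glo1 and Ager, against 17.7% of all genes. The median log2 difference (diabetic minus control) was 0.02 over the 8 genes and 0.00 over all genes tested, and 4 of the 8 were above 0.

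Ager codes for RAGE, the cell-surface receptor of advanced glycation end products, and had the largest difference of the set. Control retinas ranged from 15.6 to 62.3 normalized counts with a median of 32.2, and diabetic retinas from 15.4 to 70.5 with a median of 38.6. The groups overlapped at every time point, but the mean was higher in diabetic retinas at 6 of 6, by log2 differences of 0.37, 0.10, 0.35, 0.29, 0.24 and 0.39 from ZT1 to ZT21. Over all time points the log2 difference was 0.29 ± 0.12 (SE), 22.2% higher with a 95% interval from 3.33% to 44.5%, and the edgeR adjusted p-value was 0.176. At ZT21 the 4 control libraries held 28.9, 35.3, 32.1 and 32.3 normalized counts and the 5 diabetic ones 46.2, 38.0, 34.5, 51.3 and 39.9, so that 1 diabetic library lay inside the control range. With the summed pigment epithelium markers as a covariate the difference was 0.22, with an adjusted p-value of 0.383.

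Gfpt1, the enzyme that commits fructose 6-phosphate to the hexosamine pathway, varied least. The SD was 4.49% of the mean in control and 5.00% in diabetic retinas. Its means were 2290.0 and 2213 normalized counts, a log2 difference of -0.05 ± 0.02 (SE), a change of -3.68% with a 95% interval from -6.25% to -1.04%, and the edgeR adjusted p-value was 0.101. The diabetic mean was the lower at 5 of 6 time points. At ZT21 the control libraries held 2296, 2343, 2325 and 2308 normalized counts and the diabetic libraries 2221, 2160.0, 2211, 2161 and 2208. These groups did not overlap, the only one of the 48 pairs of groups of the 8 genes for which that held, against 1.34% of all pairs of groups over all genes (0.91%, 1.1%, 0.774%, 1.07%, 1.97% and 2.23% in order of time). The edgeR adjusted p-value for that time point was 1.00 (unadjusted 0.0871). With counts corrected per library for GC content and gene length, the whole-day difference of Gfpt1 was -0.07 with an adjusted p-value of 0.0283.

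Glo1 codes for glyoxalase 1, which with glutathione removes methylglyoxal. Its control libraries ranged from 997 to 1388 normalized counts with a median of 1240.0, and its diabetic libraries from 1115 to 1633 with a median of 1257. The log2 difference over all time points was 0.06 ± 0.03 (SE), 4.00% higher with a 95% interval from 0.0342% to 8.12%, and the edgeR adjusted p-value was 0.277. At single time points it was between -0.02 and 0.07 from ZT1 to ZT13, 0.17 at ZT17 and 0.13 at ZT21, with intervals that overlapped.

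The intervals of the other 5 genes included 0. Akr1b3 was at 155.0 ± 18.7 normalized counts in control and 153 ± 17.1 in diabetic retinas (SD, n = 30 and 28), and its interval allowed a change from -6.80% to 4.72%. Khk was at 153 ± 17.2 and 152 ± 17.6, with an interval from -6.31% to 6.28%. Sord was at 130 ± 18.2 and 135 ± 23.1, with an interval from -4.28% to 11.9%. Of the hexosamine genes, Ogt was at 4564 ± 532 and 4758 ± 513, with an interval from -1.62% to 10.8%. Gfpt2, at 23.4 ± 6.39 and 22.4 ± 5.28, was read too thinly for a narrow interval, which went from -15.4% to 10.6%. The edgeR adjusted p-values of these 5 genes lay between 0.491 (Ogt) and 0.990 (Khk).

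**Figure D2:**
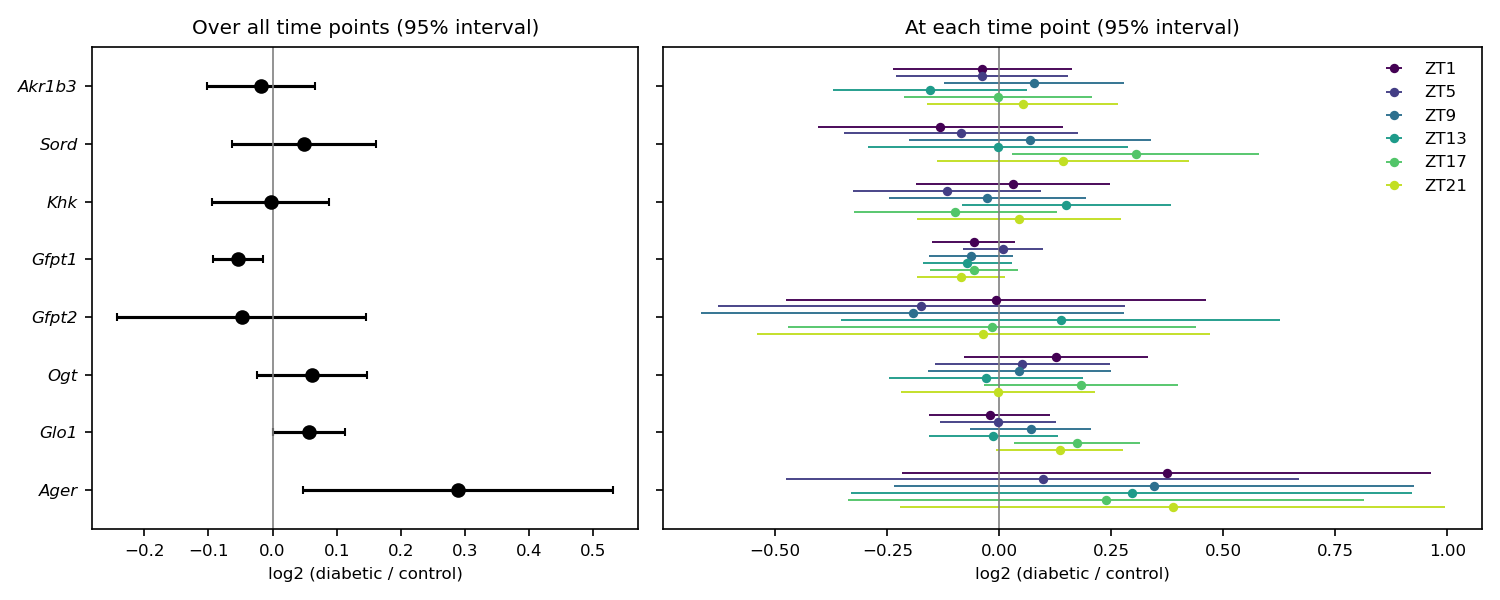
The log2 difference between diabetic and control retinas (horizontal axis) for the 8 genes, over all time points on the left and at each time point on the right, with points for the edgeR estimate and bars for its 95% interval. The whole-day intervals of Gfpt1, Glo1 and Ager leave out 0 before adjustment for the number of genes tested, and none passes after it.

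At single time points none of the 8 genes passed in edgeR's test. The shares of all genes that passed were 0.0105%, 0.0209%, 0.00523%, 0%, 0.167% and 0% in order of time, and DESeq2 called none of the 8 either. At an unadjusted p-value under 0.05 there was none of the 8 at 5 of the time points and 2 at ZT17, Sord and Glo1, against 8.82% of all genes at ZT17.

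Sord, which makes fructose from sorbitol, was at 130, 110, 152, 116 and 114 normalized counts in the 5 control libraries at ZT17 and at 167, 158, 118 and 171 in the 4 diabetic ones. Of the diabetic libraries 3 were above all controls, and the low one was replicate 4, which was not one of the libraries apart. The log2 difference was 0.30 ± 0.14 (SE), with an edgeR adjusted p-value of 0.501. Without the 2 libraries that stood apart it was 0.37, with an adjusted p-value of 0.506.

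Glo1 at the same time was at 1141, 1313, 1240.0, 1259 and 1369 normalized counts in control and at 1500.0, 1439, 1268 and 1502 in diabetic libraries. Again 3 of the 4 diabetic libraries were above all controls, and replicate 4 was again the low one. The log2 difference was 0.17 ± 0.07 (SE), with an edgeR adjusted p-value of 0.413, or 0.16 with 0.640 without the 2 libraries apart. At ZT21 the 5 diabetic libraries were at 1633, 1243, 1376, 1472 and 1368 against 1298, 1328, 1319 and 1208 in control, so that 4 of the 5 lay above all controls, with a log2 difference of 0.13 ± 0.07 (SE) and an adjusted p-value of 1.00.

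Next, each genotype was tested for a daily rhythm with a cosine of 24 h fitted to the counts. In control retinas 0 of the 8 genes passed in edgeR, against 12.2% of all genes, and in diabetic retinas 1 of 8, against 14.3%. At an unadjusted p-value under 0.05 these were 1 of 8 in control (26.4% of all genes) and 4 of 8 in diabetic retinas (26.9%). Empirical JTK_CYCLE, the method of the study, was also run, with unadjusted p-values and a minimum fold. The fold was taken here as the highest over the lowest library, where the study used the fold predicted by the method. The criteria are therefore not the same. By JTK_CYCLE Akr1b3 was rhythmic in control retinas (1 of 8, against 21.8%) and Akr1b3, Sord, Gfpt2 and Glo1 in diabetic retinas (4 of 8, against 23.9%). The sizes and peak times given next come from a least-squares cosine on log2 CPM, with its SE, and the p-values from edgeR.

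Glo1 was the gene that passed. In diabetic retinas its median was 1181, 1235, 1199, 1210.0, 1470.0 and 1376 normalized counts from ZT1 to ZT21. The 9 libraries of ZT17 and ZT21 included every one above 1343, while the other 19 stayed between 1115 and 1343. The log2 peak to trough was 0.23 ± 0.06 (SE), with the peak at ZT18.5 ± 0.991 h (SE) in the dark phase, and the adjusted p-value was 0.00758. In control retinas Glo1 moved in the same sense by 0.10 ± 0.05 (SE), with a peak at ZT19.8 ± 2.11 h and an adjusted p-value of 0.484. The test of the difference between the rhythms did not pass, with an unadjusted p-value of 0.179 and an adjusted one of 1.00, so that a rhythm particular to diabetic retinas was not shown.

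In the count model the log2 peak to trough of Glo1 in diabetic retinas was 0.24. Fits without ZT17 or without ZT21, which hold fewer libraries, gave 0.21 and 0.20 with adjusted p-values of 0.109 and 0.0988, while leaving out any single library gave values from 0.00345 to 0.0258. Without the 2 libraries apart the adjusted p-value was 0.0163. The summed pigment epithelium markers also had a daily course, with 5 of the 8 markers rhythmic in diabetic and 5 of 8 in control retinas. Diabetic medians were 1004, 504, 1736, 2956, 2030.0 and 3316 normalized counts from ZT1 to ZT21. The diabetic libraries ranged from 375 to 542 at ZT5 and from 2616 to 3853 at ZT21. Control medians were 1042, 1164, 2560, 2645, 2469 and 3190. In diabetic retinas 3 of 7 Muller glia, 3 of 5 bipolar cell and 4 of 6 cone markers were also rhythmic. In control retinas these were 2, 4 and 3. Of 8 rod markers 3 were rhythmic in each genotype, and of 6 ganglion cell markers 0. With the pigment epithelium sum as a covariate the Glo1 peak to trough in diabetic retinas was 0.23 with an adjusted p-value of 0.0612 (unadjusted 0.00603).

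**Figure D3:**
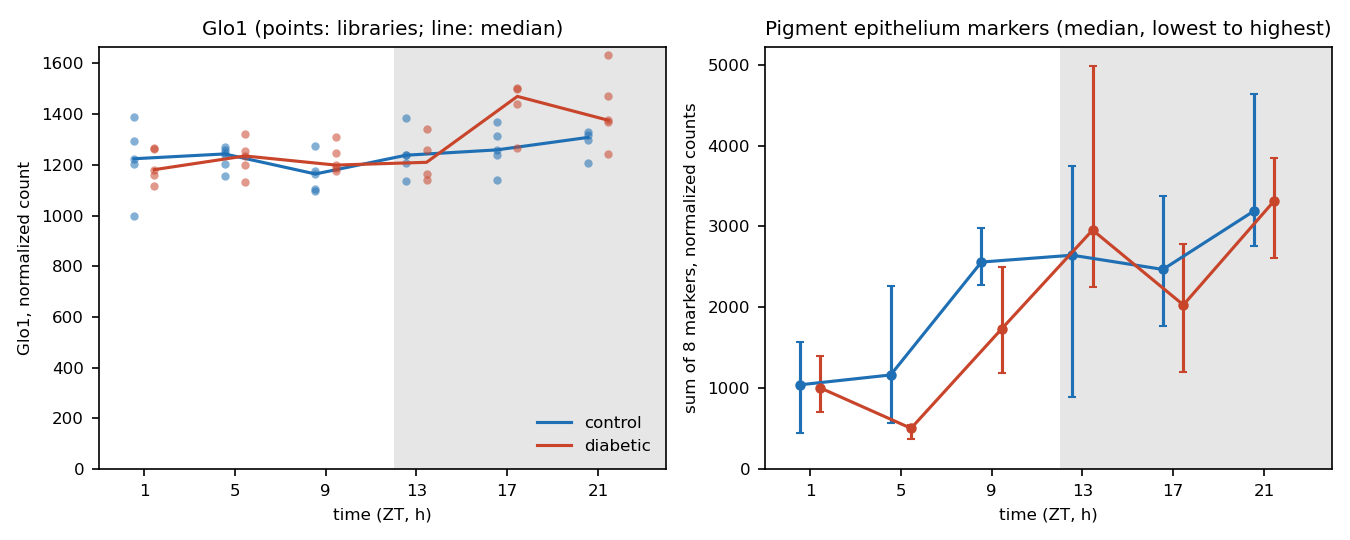
Normalized count of Glo1 in each library with the median of each group (left), and the sum of 8 pigment epithelium markers as median with the lowest and highest library (right), against time in ZT hours with the dark phase shaded. Glo1 lay at medians of 1470.0 and 1376 at ZT17 and ZT21 in diabetic retinas, while the median marker sum was highest at ZT21 in both genotypes.

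Akr1b3, the entry to the polyol pathway, had a similar daily course in both genotypes, with its lowest mean at ZT17 or ZT21, but missed the threshold in each. The means of control retinas were 158 ± 19.7, 165 ± 17.6, 160 ± 12.6, 161 ± 12.9, 140 ± 24.6 and 140 ± 10.1 normalized counts (SD) from ZT1 to ZT21. In diabetic retinas they were 154 ± 18.2, 162 ± 12.4, 169 ± 16.3, 145 ± 14.7, 141 ± 19.1 and 145 ± 7.89. The log2 peak to trough was 0.26 ± 0.08 (SE) in control, with the peak at ZT6.99 ± 1.22 h, and 0.26 ± 0.07 in diabetic retinas, with the peak at ZT6.23 ± 1.08 h. The adjusted p-values were 0.0714 and 0.0660, and the difference between the rhythms had an unadjusted p-value of 0.928. When each of the 58 libraries was left out in turn, Akr1b3 passed in 4 for control (without control ZT5 replicate 4, ZT9 replicate 4, ZT9 replicate 5 or ZT17 replicate 2, adjusted p-values from 0.0223 to 0.0497) and in 3 for diabetic retinas (without diabetic ZT5 replicate 4, ZT17 replicate 1 or ZT21 replicate 2, from 0.0345 to 0.0484). With counts corrected for GC content and length the diabetic rhythm had an adjusted p-value of 0.0339.

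Sord had a daily course in diabetic retinas that did not pass in edgeR. Its diabetic means were 112 ± 16.6, 123 ± 17.8, 141 ± 12.4, 135 ± 25.6, 154 ± 24.2 and 147 ± 22.8 normalized counts (SD) from ZT1 to ZT21, lowest in the first light point and highest at ZT17. Control means stayed between 123 ± 23.3 (ZT1) and 136 ± 25.2 (ZT13). The log2 peak to trough was 0.34 ± 0.12 (SE) in diabetic retinas, with the peak at ZT15.4 ± 1.32 h and an adjusted p-value of 0.0915, and 0.10 ± 0.11 in control, with an adjusted p-value of 0.838. The difference between the rhythms had an unadjusted p-value of 0.101. The diabetic rhythm passed without ZT13 (adjusted p-value 0.0301) and in 3 fits that left out a library (diabetic ZT5 replicate 1, ZT13 replicate 4 or ZT17 replicate 4, from 0.0452 to 0.0478), and with the pigment epithelium covariate its adjusted p-value was 0.759. Khk had no daily course that could be measured in diabetic retinas, with 0.01 ± 0.10 (SE), and 0.10 ± 0.08 in control.

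Among the hexosamine genes, the cosine fitted to Gfpt1 was small, peaked in the light phase and passed in neither genotype. The log2 peak to trough was 0.12 ± 0.04 (SE) in diabetic retinas with the peak at ZT4.02 ± 1.10 h, and 0.07 ± 0.03 in control with the peak at ZT2.92 ± 1.95 h. The edgeR adjusted p-values were 0.0889 and 0.451, and the diabetic one was 0.0490 without diabetic ZT17 replicate 4. Ogt, the transferase, also had its fitted peak by day in both genotypes, by 0.21 ± 0.09 at ZT6.54 ± 1.72 h in control and 0.15 ± 0.09 at ZT5.23 ± 2.13 h in diabetic retinas, with adjusted p-values of 0.280 and 0.469. Its lowest library of each group, at 3014 normalized counts in control and 3512 in diabetic retinas, was replicate 3 of ZT17, 1 of the 2 libraries apart in each case. The count model gave a peak to trough of 0.19 for control and 0.15 for diabetic retinas, and without those 2 libraries 0.13 and 0.10, with adjusted p-values of 0.530 and 0.731.

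Gfpt2 and Ager, with few reads, had wide errors. Gfpt2 peaked at ZT13.1 ± 2.80 h in control and ZT13.9 ± 1.45 h in diabetic retinas, with a log2 peak to trough of 0.28 ± 0.21 and 0.41 ± 0.16 (SE) and edgeR adjusted p-values of 0.499 and 0.275. Ager had 0.21 ± 0.22 and 0.34 ± 0.25, with adjusted p-values of 0.694 and 0.639. In the count model its diabetic value was 0.32, and leaving out single libraries moved that to between 0.17 and 0.49. None of the 8 genes passed the edgeR test of a difference in rhythm between genotypes, where 0 of the 19120 genes (0%) passed and 657 had an unadjusted p-value under 0.05. The lowest unadjusted p-value of the 8 was that of Sord, and DESeq2 also called none of the 8.

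**Figure D4:**
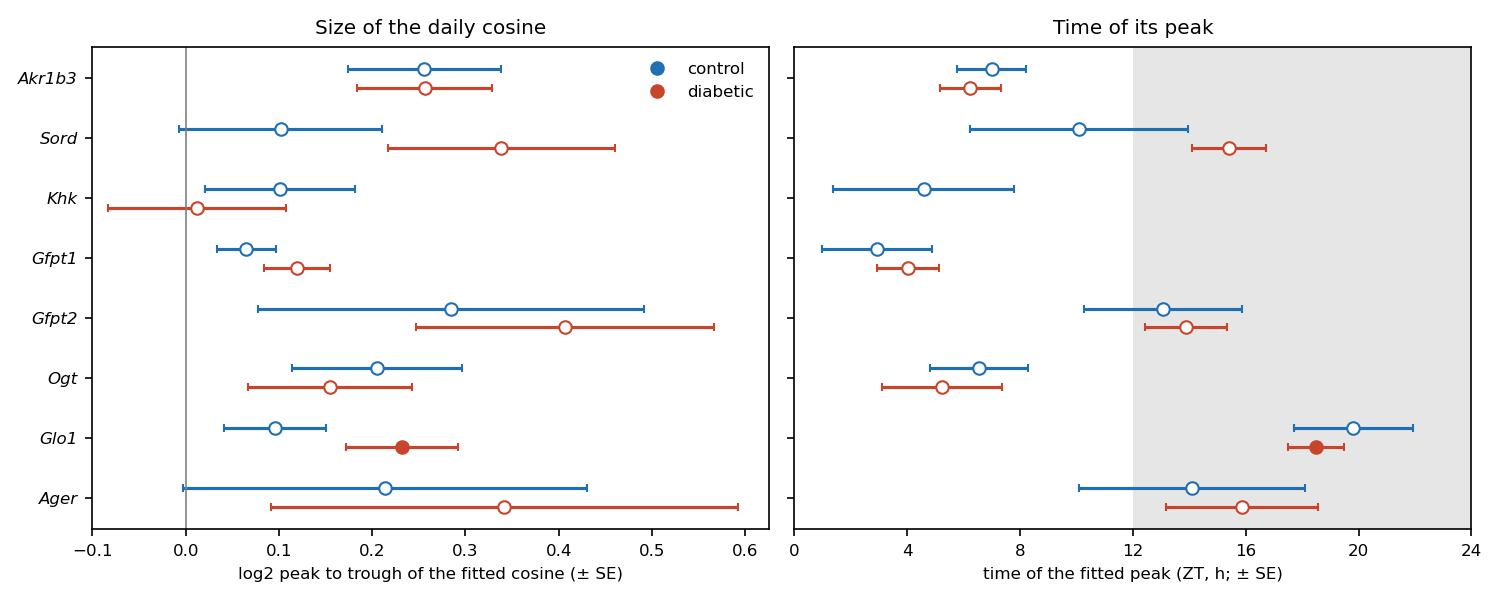
Log2 peak to trough of the 24 h cosine (left) and the time of its peak in ZT hours (right) for the 8 genes in each genotype, with bars for the SE and filled points for an edgeR adjusted p-value under 0.05. Glo1 in diabetic retinas is the filled point, and the peak time of Khk in diabetic retinas is left out because its SE was 30.0 h.

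The 8 genes did not share 1 daily pattern. Over the 12 group means of log2 CPM, the Pearson correlations of the 28 pairs of the 8 genes ran from -0.744 (Gfpt1 with Ager) to 0.678 (Akr1b3 with Ogt), and Glo1 was most like Sord (0.671). These are descriptions over points that share libraries of 1 experiment. For each gene the 3 tested genes of most similar course were Slamf1, Rpap2 and Cpt1a for Akr1b3 (0.958 to 0.955), Nars, Spink10 and D430019H16Rik for Sord (0.948 to 0.904) and Pstk, Tmem219 and Btla for Khk (0.922 to 0.869). They were Lysmd4, Ndufaf3 and Ccdc66 for Gfpt1 (0.923 to 0.906), Gsto1, Prrx1 and Wdsub1 for Gfpt2 (0.902 to 0.894) and Pdcd10, Gm14326 and Eif2s3y for Ogt (0.958 to 0.956). For Glo1 they were Dynll2, 1700025G04Rik and Setd3 (0.982 to 0.950), and for Ager Myo10, Adamtsl4 and Larp1b (0.953 to 0.889).

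The wider pathways were read from 43 further genes in 3 branches. Over all time points 0 of 9 tested genes of the polyol and fructose branch (10 listed), 0 of 15 of the hexosamine branch (15 listed) and 1 of 15 of the glycation branch (18 listed) passed in edgeR, against 4.64% of all genes. The median log2 differences of the branches were -0.04, -0.02 and -0.02, against 0.00 over all genes. The gene that passed was Park7, which codes for DJ-1, a protein of the response to oxidative stress that has also been linked to methylglyoxal. It fell by 0.11 ± 0.03 (SE) on the log2 scale, a change of -7.57% with an interval from -11.9% to -3.06% and an adjusted p-value of 0.0410, and its mean was lower in diabetic retinas at 6 of 6 time points. Control libraries ranged from 869 to 1213 normalized counts with a median of 991, diabetic libraries from 797 to 1118 with a median of 904, so the groups overlapped broadly. The call did not hold in 29 of the 58 fits that left out a library (adjusted p-values up to 0.0744, differences from -0.11 to -0.10), nor with the pigment epithelium covariate (-0.10, 0.136). Markers of several cell types had median log2 differences below 0 over all time points. Rods were at -0.09 (8 markers, 2 called lower), cones at -0.12 (6, 4 called lower) and bipolar cells at -0.10 (5, 1 called lower). Microglia were at -0.09 (6 tested, 1 called lower), endothelium at -0.05 (7, 1 called lower) and pigment epithelium at -0.28 (8, 2 called lower). Lens was at -1.08 (3 tested, none called), against 0.00 for 7 Muller glia and 0.07 for 6 ganglion cell markers (none called). Apart from the pigment epithelium covariate, the part of these markers in the Park7 result or in those of the 8 genes was not tested. The log2 differences of Prkcsh (-0.10, adjusted p-value 0.0987) and Ddost (-0.09, 0.113) did not pass, both of them parts of enzymes of protein glycosylation that have also been described as binding glycated proteins.

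**Figure D5:**
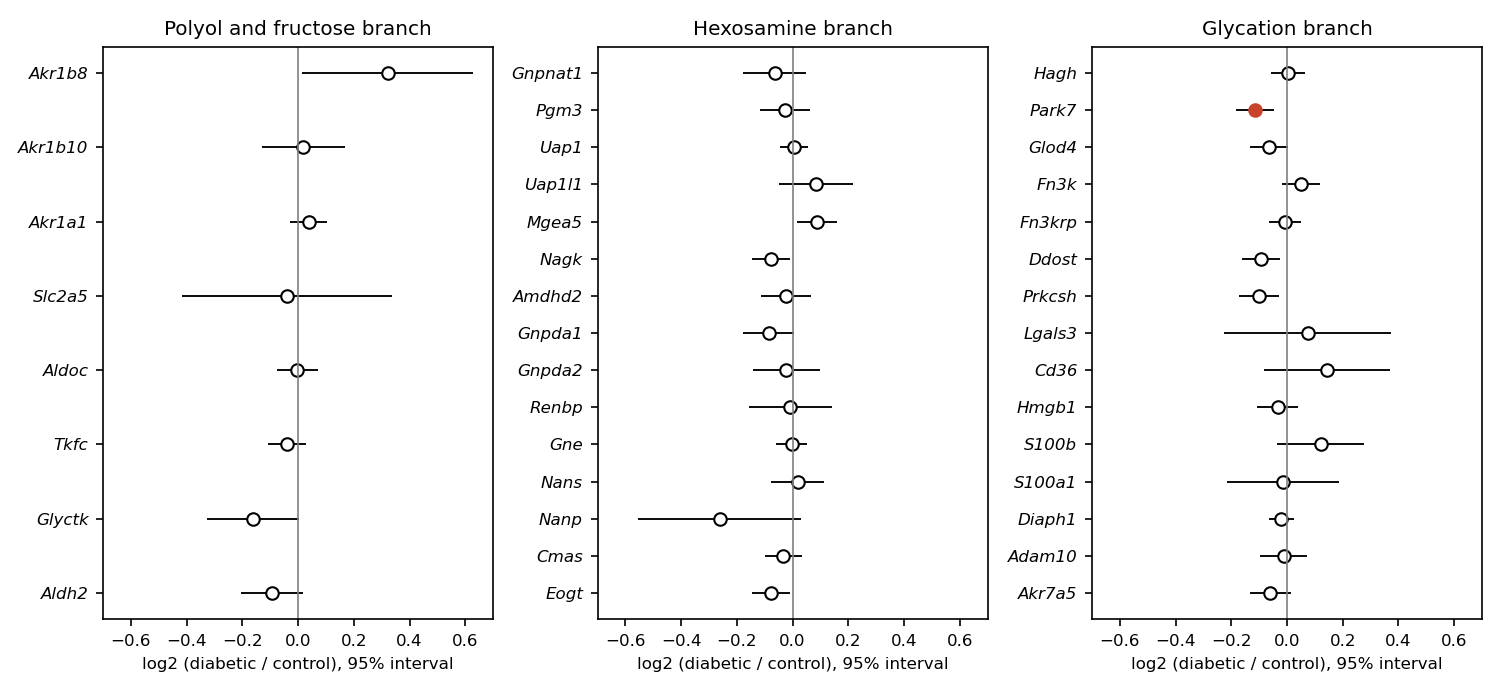
The log2 difference between diabetic and control retinas over all time points for tested genes of the 3 branches, with bars for the 95% interval and a filled point for an edgeR adjusted p-value under 0.05. Park7, at -0.11, is the filled point.

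In the rhythm tests 3 of 9 genes of the polyol and fructose branch passed in control and 3 of 9 in diabetic retinas, 1 of 15 and 1 of 15 of the hexosamine branch, and 1 of 15 and 0 of 15 of the glycation branch, against 12.2% and 14.3% of all genes. Tkfc, which phosphorylates the glyceraldehyde that comes from fructose, passed in both genotypes. Its log2 peak to trough was 0.24 ± 0.06 (SE) in control and 0.26 ± 0.06 in diabetic retinas, with adjusted p-values of 0.0324 and 0.0144. Its fitted peak was at ZT8.63 in control and ZT3.23 in diabetic retinas, and the test of the difference had an unadjusted p-value of 0.00493 and an adjusted one of 1.00. Akr1b8, a relative of aldose reductase, passed in control retinas (adjusted p-value 0.0159), at 3.46 to 23.5 normalized counts. Aldoc, the aldolase of the nervous system, and Aldh2, a mitochondrial aldehyde dehydrogenase, passed in diabetic retinas (0.0351 and 0.0230) with peaks at ZT18.8 and ZT17.3. Each of these calls was lost in fits without 1 of several time points, and those of Aldoc and Aldh2 also without the 2 libraries apart (0.111 and 0.0840) and with the pigment epithelium covariate (0.107 and 0.143). Leaving out single libraries ended the call of Tkfc in control in 6 of 58 fits (control ZT5 replicate 2, ZT9 replicates 3 and 4, ZT21 replicates 1, 2 and 4, adjusted p-values up to 0.0905, peak to trough at least 0.20). It ended that of Aldoc in 8 (diabetic ZT5 replicate 5, ZT9 replicate 1, ZT17 replicates 1, 3 and 5, ZT21 replicates 1, 3 and 4, up to 0.128, at least 0.20) and that of Aldh2 in 1 (diabetic ZT17 replicate 3, 0.1101, peak to trough 0.33).

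Amdhd2, which removes the acetyl group from N-acetylglucosamine 6-phosphate, was the hexosamine gene that passed, in both genotypes. Its log2 peak to trough was 0.33 ± 0.09 (SE) in control and 0.35 ± 0.09 in diabetic retinas, with adjusted p-values of 0.0234 and 0.0161 and peaks by day at ZT6.75 and ZT5.15. Without ZT17 the adjusted p-values were 0.403 and 0.295. The call was also lost in 3 fits without 1 library in control (ZT17 replicates 2 and 5, ZT21 replicate 3, up to 0.0725) and in 2 in diabetic retinas (ZT17 replicates 4 and 5, up to 0.0603), with a peak to trough of at least 0.27 and 0.30. Pgm3 and Gnpda2, enzymes of the same sugar phosphates, had edgeR adjusted p-values of 0.0598 and 0.139 in control and 0.0777 and 0.0718 in diabetic retinas. In the glycation branch Diaph1, whose product binds the inner tail of the receptor RAGE, passed in control retinas (0.17 ± 0.05, adjusted p-value 0.0172, peak at ZT20.2). It did not pass without ZT5 or ZT17 (0.0906 and 0.137) or without control ZT21 replicate 4 (0.0576, peak to trough 0.16). The next genes of that branch were S100b and Prkcsh in control (0.104 and 0.167) and S100b, Akr7a5 and Hmgb1 in diabetic retinas (0.0728, 0.0977 and 0.303). None of these genes passed the test of a difference in rhythm between genotypes.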

How the data were processed

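The authors aligned paired reads of ribosome-depleted total RNA with STAR (2.7.4a) to the GRCm38.p5 genome (annotation Gencode M15) and deposited whole-number HTSeq (0.11.1) counts per gene symbol, neither normalized nor filtered, in 58 columns. The HTSeq strand setting is not given in the sources used here. The members and lists were chosen with earlier results of these data known. From the counts, genes with a median above 4 normalized counts (DESeq2 1.42.0 size factors) were tested with edgeR 4.0.16 (TMM, quasi-likelihood, R 4.3.3), with p-values adjusted by Benjamini-Hochberg over 19120 genes. A fit of 12 groups gave the genotype differences. A fit of genotype with a cosine and sine of 24 h in each gave the rhythms and their difference. Empirical JTK_CYCLE was rewritten in Python 3.11.15 with 200000 shuffled series. The code was tested on simulated data. No 2 libraries of a group agreed within counting noise (lowest chi-square per degree of freedom 1.86 over 113 pairs). All 8 genes were named, and of the wider list those called over all time points or in the difference, with the 3 lowest rhythm p-values per genotype and branch. Prkcsh and Ddost over all time points and Tkfc in the difference were named after their values were seen. The 3 genes most like each in the 12 group means were also named. Alternatives were other normalizations, filters, tests, a replicate block, a GC and length correction, and leaving out each library or time point. Chosen after seeing the data were a fit without the 2 libraries apart, a pigment epithelium covariate, and the block with the GC and length correction. Replicates were separate mice. Genome coordinates and lengths are from Gencode M21, in which 47982 symbols matched and 201 more by an older symbol. For 1 gene of the polyol and fructose branch, which is included in the counts of that branch, no values are reported here.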

Additional observations from a re-analysis of the deposited data

Results flagged for a closer look

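Of 96 groups of 4 to 6 libraries (8 genes in 12 groups), 2 held a library far from the others, where chance alone marks about 1 in 20 groups. Akr1b3 in diabetic retinas at ZT21 was at 159 normalized counts in replicate 2, above the other 4 libraries at 139 to 143. Gfpt2 in control retinas at ZT17 was at 16.8 normalized counts in replicate 2, below the other 4 at 28.6 to 32.6.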

How the results depend on the processing

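Read depth limits Gfpt2 and Ager most, and the 8 genes are too few to speak for their pathways. Genes called over all time points (888) became 533 with no filter on low values, 572 with 1 group per genotype, 1492 with the GC and length correction and 1622 with that correction and the replicate block. The share of called genes that were higher in diabetic retinas was 51.6%, but 37.7% with the correction and 36.6% with both. Of the 8 genes 1 (Gfpt1, adjusted p-value 0.0283 and 0.0189) was then called. Called genes at single time points were, with DESeq2, 6, 24, 4, 1, 83 and 2 from ZT1 to ZT21. With no filter they were 1 at ZT1, 3 at ZT9 and 1 at ZT21. With the correction they were 12, 9, 6, 2, 124 and 6 in order of time, and with correction and block 14, 23, 11, 2, 209 and 10. With the block alone they were 10 at ZT5, 2 at ZT9 and 60 at ZT17, with the pigment epithelium covariate 2 at ZT5 and 2 at ZT9, and without the 2 libraries apart 14 at ZT17. Rhythmic genes in control retinas (2337) became 3513 with correction and block, 1166 without ZT5, 757 without ZT17 and 4172 with JTK_CYCLE. Rhythmic genes in diabetic retinas (2736) became 4117 with correction and block, 1736 with the covariate, 1801 without ZT9, 1347 without ZT17, 1549 without ZT21 and 4565 with JTK_CYCLE. Of the 8 genes, 1 was rhythmic in control with the block (Akr1b3), 1 with block and correction and 1 with JTK_CYCLE. In diabetic retinas 2 were rhythmic with the block, the correction, both, or without ZT13, 0 with the covariate, without ZT17 or without ZT21, and 4 with JTK_CYCLE. Differences in rhythm were called for 3 genes with no filter and 3 with correction and block, none of the 8. The cause of these shifts was not tested. The Khk difference over all time points turned to 0.0004217 with the block and 0.002256 with the covariate, and in 18 of 58 fits that left out a library it lay from 0.0002132 to 0.01099, with a range over all 58 from -0.0181 (without diabetic ZT17 replicate 3) to 0.01099.

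Leaving out each library in turn gave 699 to 990 genes over all time points, and in order of time 0 to 4, 2 to 8, 0 to 2, 0 to 1, 3 to 96 (without diabetic ZT17 replicates 5 and 1) and 0 to 1 at single time points. It gave 1742 to 3165 rhythmic genes in control (0 to 1 of the 8), 2165 to 3249 in diabetic retinas (1 to 3 of the 8) and 0 to 1 differences in rhythm. Replicate numbers were shared by the groups, and the sources used here do not say whether a number marks a litter or day, so they were not taken as pairs. Over 26 pairs of the same number and time the correlation of deviations was -0.219 to 0.579 (median 0.126, 15 over 0.1). Of 58 libraries 25 correlated best with their own number, a count for which the share by chance was not worked out. Over all times the median was 0.0836 for the same number and -0.0152 for other numbers. With the replicate block 907 genes were called over all time points. Rhythmic genes were then 3049 in control and 3053 in diabetic retinas, against 2337 and 2736 without it. The edgeR adjusted p-values of the Akr1b3 rhythm with the block were 0.0300 in control and 0.0410 in diabetic retinas.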
